A study of Homo sapiens with 4 samples.

Results

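Small nucleolar RNA host genes, whose introns carry small nucleolar RNAs, were followed through 4 RNA sequencing libraries of human colorectal cancer cells: GAS5, SNHG1, SNHG5, SNHG6, SNHG7, SNHG8, SNHG12, SNHG15, SNHG16 and ZFAS1. They were taken as the rows whose Ensembl gene identifier carries one of these symbols, which gave 10 of the 60658 identifiers in each library, and all 10 passed the filter on low values. Per the labels, the cells were the established lines HT29 and LIM1215, both from colon. In each line 1 library came from cells given a negative control siRNA (NC) and 1 from cells given an siRNA against TMEM161A (si2), a gene for a transmembrane protein that the study examined in colorectal cancer. An siRNA is a short RNA duplex that directs the cleavage of a matching mRNA. Dose, time after transfection and number of pooled cultures were not given in the sources used here. Each group had 1 library, so no value within a line has an error between replicates, and the other line was the only repeat of the comparison.

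A small nucleolar RNA (snoRNA) guides the chemical modification of other RNAs, chiefly ribosomal RNA. Box C/D snoRNAs guide methylation of the ribose and box H/ACA snoRNAs guide the change of uridine to pseudouridine. Most human snoRNAs lie in introns of a host gene and are trimmed out of the excised intron, while the exons of the host are spliced into a separate RNA. In hosts that encode no protein, many spliced RNAs reach the cytoplasm, are read by ribosomes over a short frame and are then destroyed by nonsense-mediated decay, a surveillance pathway that needs translation. Several of these genes also begin with a 5′ terminal oligopyrimidine tract (TOP), a run of C and U after an initial C that couples translation to growth signals. The abundance of the spliced RNA is therefore known to respond to both transcription and decay.

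Levels are FPKM, fragments scaled to gene length and to the mapped fragments of the library, as deposited, and a comparison is the log2 ratio of FPKM + 1. By estimate, each kilobase of a gene at an FPKM of 1 held 18.1 to 21.54 fragments, depending on the library. The targeted gene TMEM161A had an FPKM of 42.6 in HT29 NC and 4.64 in HT29 si2 (log2 ratio −2.95), and of 39.1 in LIM1215 NC and 7.61 in LIM1215 si2 (−2.22). All 12 markers of colorectal epithelium reached an FPKM of 1 in both LIM1215 libraries, where their summed FPKM was 8426 and 10350. In both libraries labelled HT29 only 6 of the 12 did, with sums of 3140 and 3588: CDX1 was listed at 0 and CDH17, VIL1, GPA33, LGALS4 and KRT20 were below 1, while EPCAM, CDH1, KRT8, KRT18, KRT19 and CDX2 were present. The identity of that line was not checked here. The name HT29 is therefore used below only as the label of those libraries, and every result is given for each line on its own. Of 12 markers of stroma, blood and vessels, 1 or 2 reached an FPKM of 1 in any library, with sums from 6.89 to 18.4. In RNA from a bulk culture, fewer cells holding a transcript and less of it per cell cannot be told apart.

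The first bases of the transcripts are shown because the TOP tract is the sequence feature these hosts are best known for. Start sites are those of RefSeq on GRCh38.p14, matched by symbol, and each line holds 10 bases before the start and 20 bases from it. SNHG6 and SNHG15 are not shown. Capitals mark the unbroken run of C and T from the first transcribed base.
ZFAS1: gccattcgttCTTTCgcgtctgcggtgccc
SNHG5: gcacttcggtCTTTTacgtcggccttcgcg
SNHG12: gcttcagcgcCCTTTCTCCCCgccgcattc
SNHG7: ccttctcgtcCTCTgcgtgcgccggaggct
SNHG1: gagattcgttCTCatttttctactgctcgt
SNHG8: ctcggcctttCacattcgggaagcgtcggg
GAS5: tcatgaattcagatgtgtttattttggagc
SNHG16: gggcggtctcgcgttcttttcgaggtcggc
The windows are chr20:49278632-49278661 for ZFAS1 (plus strand), chr6:85678714-85678743 for SNHG5 (minus), chr1:28581854-28581883 for SNHG12 (minus), chr9:136728165-136728194 for SNHG7 (minus), chr11:62855866-62855895 for SNHG1 (minus), chr4:118278752-118278781 for SNHG8 (plus), chr1:173869026-173869055 for GAS5 (minus) and chr17:76557754-76557783 for SNHG16 (plus). A C followed by at least 3 pyrimidines, read on the transcribed strand only, was present in 4 of these 8 windows (ZFAS1, SNHG5, SNHG12 and SNHG7), against 5.45% of 35116 start windows of all genes. The first transcribed base was C in 6 of the 8 and in 14.7% of all windows. These are matches of letters at 1 annotated start. A gene can start at other bases, and the RefSeq start of GAS5 lies upstream of its GENCODE interval, so a window without the run says nothing of the RNA in these cells.

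The short reading frame was examined in the GENCODE transcripts as the second feature linked to decay. The frame was taken from the first ATG, and a spliced transcript was counted when its last exon junction lay more than 50 bases after the stop codon, the arrangement known to expose a transcript to nonsense-mediated decay. It was present in 89 of 91 spliced GAS5 transcripts (97.8%), with a median frame of 50 codons, and in 18 of 18 for SNHG12. The share was 94.9% for SNHG1, 94.3% for SNHG5 and 94.1% for SNHG16. It was 80% for SNHG7, 78.6% for SNHG8 and for SNHG15, 75% for SNHG6 and 71.4% for ZFAS1. Among the 9190 spliced transcripts of the other lncRNA genes compared it was 79.5%. Thus 5 of the hosts lay above this level by over 10 percentage points and the other 5 lay near or below it. GENCODE lists many transcripts for 1 locus that share their exons, so these shares describe the annotation and carry no test.

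All 10 genes are annotated as long noncoding RNAs (lncRNAs) in GENCODE release 44 on GRCh38. GAS5 (ENSG00000234741) lies at chr1:173858559-173868882 on the minus strand and SNHG12 (ENSG00000197989) at chr1:28578538-28583132 on the minus strand. SNHG1 (ENSG00000255717) lies at chr11:62851978-62855953, minus strand, SNHG5 (ENSG00000203875) at chr6:85650491-85678932, minus strand, and SNHG6 (ENSG00000245910) at chr8:66920561-66926398, minus strand. SNHG7 (ENSG00000233016) lies at chr9:136721366-136728184, minus strand, and SNHG15 (ENSG00000232956) at chr7:44983019-44986961, minus strand. On the plus strand are SNHG8 (ENSG00000269893) at chr4:118278703-118285316, SNHG16 (ENSG00000163597) at chr17:76557727-76670985 and ZFAS1 (ENSG00000177410) at chr20:49278178-49299600. The interval of ZFAS1 overlaps its antisense neighbour ZNFX1 and that of GAS5 overlaps ZBTB37 and GAS5-AS1. Whether counting used the strand was not given in the sources used here, so fragments from those overlaps cannot be told apart.

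The genes spanned an order of magnitude in level. GAS5 was the most abundant of the set in both HT29 libraries and in LIM1215 si2, and SNHG5 in LIM1215 NC. SNHG15 was the least abundant in both HT29 libraries, SNHG16 in LIM1215 NC and SNHG12 in LIM1215 si2. The 10 FPKM values summed to 2004 in HT29 NC and 2356 in HT29 si2, or 0.255% and 0.284% of all FPKM. In LIM1215 the sum was 2462 in NC and 2475 in si2, and its share was 0.276% and 0.277%.

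**Figure D1:**
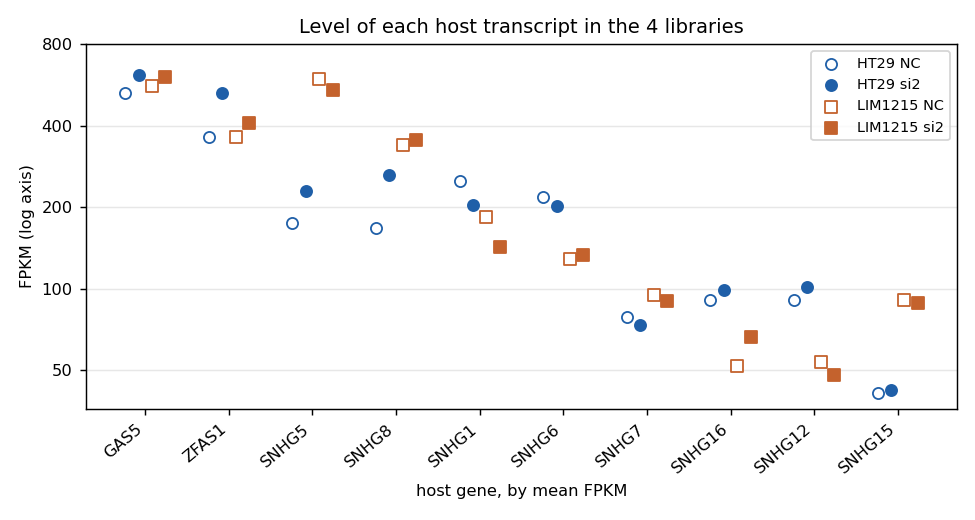
FPKM (log axis) of each host gene in the 4 libraries, with genes ordered by mean FPKM; open symbols are NC, filled symbols si2, circles HT29 and squares LIM1215. GAS5 lies between 528 and 614 in all 4 libraries, while the SNHG5 squares lie well above its circles.

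No host gene differed 2-fold between si2 and NC in either line. In HT29, 7 of the 10 had a higher FPKM in si2 and 3 a lower one, with SNHG8 the highest (log2 ratio 0.65) and SNHG1 the lowest (−0.30). In LIM1215, 5 were higher and 5 lower, with SNHG16 the highest (0.34) and SNHG1 again the lowest (−0.36). GAS5, SNHG8, SNHG16 and ZFAS1 were higher in both lines, SNHG1 and SNHG7 lower in both, and SNHG5, SNHG6, SNHG12 and SNHG15 had opposite signs. The median of the 10 log2 ratios was 0.14 for HT29 and 0.01 for LIM1215, against 0.04 and 0.02 over all 14803 genes compared. Of all those genes, 53.9% were higher in HT29 si2 and 53.1% in LIM1215 si2, and the counts of higher genes below are read against these shares.

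The lines were also taken as a pair of repeats, in a fit of line and siRNA added after the values were seen (limma, 1 residual degree of freedom per gene, with the spread pooled over genes). At a Benjamini-Hochberg adjusted p of at most 0.05 it called 0.858% of the 14803 genes higher in si2 and 1.09% lower, TMEM161A among them. It called 0 of the 10 hosts, and 2 of them, SNHG1 and ZFAS1, had an unadjusted p below 0.05. SNHG1 had a mean log2 ratio over the lines of −0.33 ± 0.10 (SE) with an adjusted p of 0.153 in limma, and ZFAS1 one of 0.35 ± 0.12 with an adjusted p of 0.182 in limma. With 1 residual degree of freedom this fit has little power for a single gene, and it treats a difference in response between the lines as error.

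These differences were set against all other genes. Of the 14803 genes, 1.85% were at least 2-fold higher and 1.95% at least 2-fold lower in HT29 si2, and 1.68% and 1.78% in LIM1215 si2. In HT29 the 274 higher and 288 lower genes (48.8% higher) became 235 and 381 (38.1%) under rescaling to a common sum over long nuclear genes (non-mitochondrial, with a canonical transcript of at least 500 bases). At 1.5-fold the shares were 7.87% higher and 6.91% lower in HT29, and 6.63% and 6.18% in LIM1215. At that threshold 1 host gene was higher in HT29 (SNHG8), none in LIM1215, and none was lower in either line. A count of 1 in 10 at this size is close to the 7.87% of all genes. Abundant genes vary less, so the 1693 genes with a mean FPKM in the span of the hosts, 65.8 to 577, were taken as a closer background. The middle 95% of those genes lay between log2 ratios of −0.62 and 0.74 in HT29 and between −0.54 and 0.60 in LIM1215, and 0 of the 10 hosts lay outside in either line. In each line 6 of the 10 lay in the middle 50%.

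A counting interval was placed around each ratio from the estimated fragments (95%, Clopper-Pearson, counting error only, without the variation between cultures). It excluded 100% of control for 7 hosts in HT29, 5 higher and 2 lower, and for 6 in LIM1215, 3 higher and 3 lower. With each interval multiplied by the factor of another scaling, the number was 7 or 8 in HT29 and 6 or 7 in LIM1215. The libraries thus differed by more than fragment counting gives for most hosts, although the differences were no larger than those of other genes of their abundance. How many other genes had an interval that excludes 100% was not counted, so the counts are not read as particular to the hosts.

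**Figure D2:**
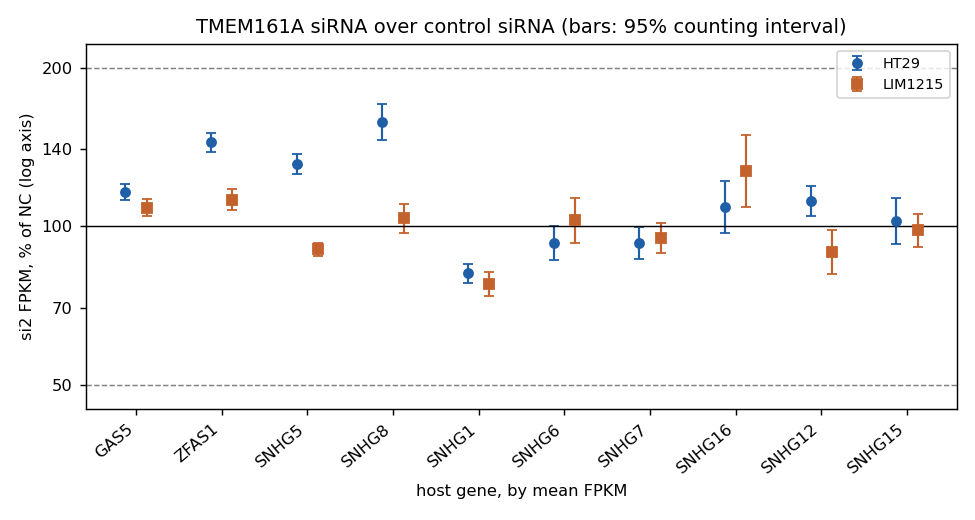
FPKM in si2 as a percent of NC (log axis) for each host gene in HT29 (circles) and LIM1215 (squares); bars are 95% counting intervals, the solid line is 100% and the dashed lines are 50% and 200%. Every point lies between the dashed lines, and SNHG5 and SNHG12 lie on opposite sides of 100% in the 2 lines.

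The hosts of box C/D snoRNAs are described first. GAS5 is named for its accumulation in growth-arrested cells, and its spliced RNA can bind the glucocorticoid receptor. Its FPKM was 528 in HT29 NC and 614 in HT29 si2, and 559 in LIM1215 NC and 606 in LIM1215 si2. Both si2 libraries were above both NC libraries. The log2 ratio was 0.22 in HT29, or 116% of control (interval 112% to 120.5%), and 0.12 in LIM1215, or 109% (105% to 113%). Of the genes in the same FPKM span, 28.8% were higher than GAS5 in HT29 and 30.5% in LIM1215, so neither ratio was unusual for its abundance.

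ZFAS1, antisense to the promoter of ZNFX1 and host of the SNORD12 family, had the second largest ratio in HT29. Its FPKM was 364 in HT29 NC, 525 in HT29 si2, 363 in LIM1215 NC and 408 in LIM1215 si2. As deposited, the 2 NC libraries were nearly level and both si2 libraries were above them. Under a common sum of FPKM, upper quartile scaling or the common sum over long nuclear genes, LIM1215 si2 lay below HT29 NC (387 against 393 with the common sum of FPKM), while each si2 library stayed above the NC library of its own line. The log2 ratio was 0.53 in HT29, 144% of control (139% to 151%), and 0.17 in LIM1215, 112% (107% to 118%). In HT29, 6.79% of genes in the same span were higher, and in LIM1215 24.2%.

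SNHG1, host of a cluster of box C/D snoRNAs, had a counting interval below 100% in both lines, as did no other host in the FPKM as deposited. Its FPKM was 249.9 in HT29 NC, 203 in HT29 si2, 184 in LIM1215 NC and 143 in LIM1215 si2. Each si2 library was below the NC library of its line, and both LIM1215 libraries were below both HT29 libraries. The log2 ratio was −0.30 in HT29, 81.4% of control (78.1% to 84.8%), and −0.36 in LIM1215, 77.7% (73.9% to 81.8%). In its FPKM span, 10.9% of genes were lower in HT29 and 7.68% in LIM1215.

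SNHG5, which carries a U50 snoRNA, differed in direction between the lines. Its FPKM was 176 in HT29 NC and 230.5 in HT29 si2, against 596 in LIM1215 NC and 539.7 in LIM1215 si2. The log2 ratio was 0.39 in HT29, 131% of control (126% to 137%), and −0.14 in LIM1215, 90.5% (88.0% to 93.1%). The si2 libraries of the 2 lines were thus closer to each other than the NC libraries.

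SNHG6 and SNHG16, the other C/D hosts, had small or uneven ratios. SNHG6 had an FPKM of 218 in HT29 NC, 203 in HT29 si2, 129 in LIM1215 NC and 133 in LIM1215 si2. Its log2 ratios were −0.10 and 0.04, and both intervals included 100% (86.4% to 100.2% in HT29, 93.0% to 113% in LIM1215). The HT29 interval lay below 100% under each of the 4 other scalings (80.3% to 93.2% with the common sum over long nuclear genes), so the call for SNHG6 in HT29 depends on the scaling. SNHG16 had an FPKM of 91.2 in HT29 NC, 99.3 in HT29 si2, 52.1 in LIM1215 NC and 66.3 in LIM1215 si2. Its log2 ratio was 0.12 in HT29, 109% of control (97.0% to 122%), and 0.34 in LIM1215, 127% (109% to 149%). The LIM1215 ratio was the highest of the 10 in that line and also one of the least precise, since it rested on an estimated 281 and 398 fragments. That estimate used the canonical transcript of 498 bases and not the median of 2459. The longer one would give more fragments and a narrower interval.

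The hosts of box H/ACA snoRNAs are SNHG8 and SNHG15. SNHG8 had an FPKM of 167 in HT29 NC, 263 in HT29 si2, 340.3 in LIM1215 NC and 352 in LIM1215 si2. Only the HT29 libraries were far apart, with a log2 ratio of 0.65, 158% of control (146% to 171%), against 0.05 in LIM1215, 104% (97.1% to 110.4%). In HT29, 3.84% of genes in the same span were higher. SNHG15, a short-lived host RNA, had an FPKM of 41.3 in HT29 NC, 42.3 in HT29 si2, 90.6 in LIM1215 NC and 89.0 in LIM1215 si2. Its log2 ratios were 0.03, which turned negative (lowest −0.07) under each of 4 other scalings, and −0.03, and both intervals included 100% (92.5% to 113% in HT29, 91.3% to 106% in LIM1215).

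SNHG12 carries snoRNAs of both classes, and SNHG7 carries H/ACA snoRNAs of the SNORA17 family. SNHG12 had an FPKM of 91.1 in HT29 NC, 102 in HT29 si2, 53.7 in LIM1215 NC and 48.0 in LIM1215 si2. Its log2 ratio was 0.16 in HT29, 112% of control (104% to 119%), and −0.16 in LIM1215, 89.4% (81.3% to 98.4%). As deposited, it was above control in HT29 and below it in LIM1215, beyond counting error. The HT29 interval included 100% with the common sum of FPKM (98.7% to 113%) and with the common sum over long nuclear genes (97.1% to 111%). SNHG7 had an FPKM of 79.0 in HT29 NC, 73.4 in HT29 si2, 94.7 in LIM1215 NC and 90.0 in LIM1215 si2. Its log2 ratios were −0.10, 92.9% of control (86.6% to 99.7%), and −0.07, 95.1% (88.8% to 102%). It was lower in both si2 libraries, within counting error in LIM1215 except with the common sum over long nuclear genes (86.8% to 99.4%).

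The snoRNAs themselves were nearly out of reach of these libraries, which select RNA with a poly(A) tail. In GENCODE release 44, 26 snoRNA genes lie within 9 of the hosts, and none was matched by position within GAS5. Of the 26, 21 were listed at 0 in all 4 libraries and 5 were above 0 in at least 1, at most at an FPKM of 79.2 for a SNORD22 copy in SNHG1. Such short genes receive a high FPKM from few fragments, so no comparison was made, and the ratios above describe the spliced hosts alone.

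For 8 of the 10 hosts the NC libraries of the lines were farther apart than si2 and NC were in either line, GAS5 and ZFAS1 being the exceptions. The same count was not made over all genes, so it is not read as a trait of the hosts. Over all genes too, fewer passed 2-fold between si2 and NC (at most 1.95% in either direction) than between the NC libraries. In the NC libraries the log2 ratio of LIM1215 over HT29 was 1.76 for SNHG5, 1.12 for SNHG15 and 1.02 for SNHG8, the 3 hosts at least 2-fold higher in LIM1215. None was 2-fold lower. Over all 14803 genes, 12.0% were 2-fold higher and 7.42% lower. Rescaling to a common sum of FPKM left SNHG5 alone past 2-fold (1.58), with SNHG15 at 0.94 and SNHG8 at 0.84. It also moved the genes past 2-fold from 1773 higher and 1099 lower (61.7% higher) to 1488 and 1451 (50.6%). SNHG7 was higher in LIM1215 by 0.26 and GAS5 by 0.08, the latter negative under 3 of the 8 alternatives (lowest −0.10). ZFAS1 differed by −0.00, SNHG1 by −0.44, SNHG6 by −0.75, SNHG12 by −0.75 and SNHG16 by −0.80. SNHG5 was thus 3.40-fold higher in LIM1215 NC, whereas SNHG16 was 1.75-fold higher in HT29 NC.

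In the si2 libraries the same ratio was 1.22 for SNHG5, 1.06 for SNHG15 and 0.42 for SNHG8. It was −1.07 for SNHG12, −0.61 for SNHG6, −0.58 for SNHG16, −0.51 for SNHG1 and −0.37 for ZFAS1. The gap of SNHG8 between the lines was therefore 2.04-fold in NC and 1.34-fold in si2. SNHG7 (0.29) and GAS5 (−0.02) were again nearly level. SNHG12 was thus at least 2-fold lower in LIM1215 si2, and under all 9 settings (−1.01 to −1.19). SNHG5 was at least 2-fold higher under all 9 and SNHG15 under 5 of 9. Of all 14803 genes, 1877 were 2-fold higher and 1262 lower in LIM1215 si2 than in HT29 si2. With 1 library per group these gaps carry no error between cultures. Neighbours in the order cannot be ranked, such as SNHG6, SNHG12 and SNHG16 in NC, or SNHG6 and SNHG16 in si2.

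**Figure D3:**
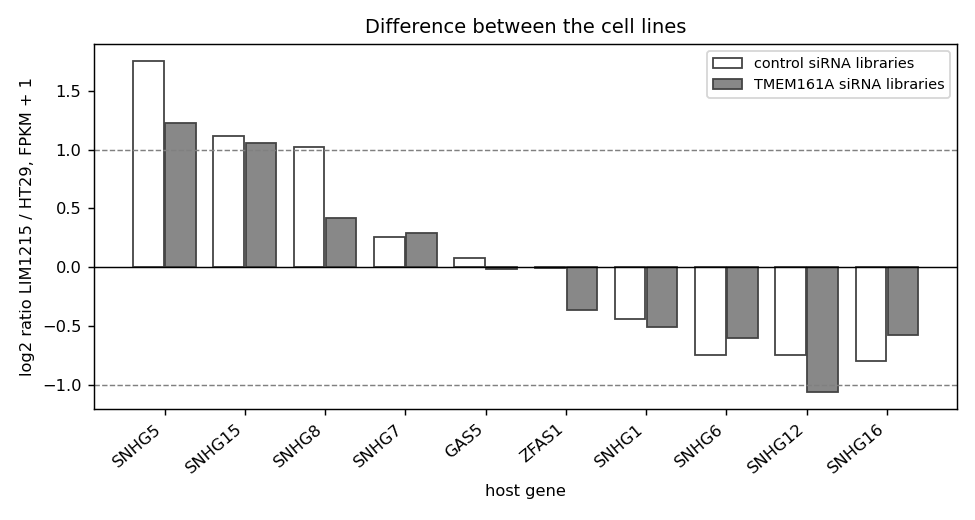
Log2 ratio of LIM1215 over HT29 (FPKM + 1) for each host gene in the NC libraries (white bars) and the si2 libraries (grey bars), with dashed lines at 2-fold. SNHG5 has the tallest bars (1.76 and 1.22), and the SNHG8 bar drops from 1.02 in NC to 0.42 in si2.

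Other noncoding hosts of snoRNAs, a list of 16 genes of which 15 passed the filter, gave a fuller view of the class. In HT29, 14 of the 15 had a higher FPKM in si2, against 53.9% of all genes, and the remaining one, SNHG18, was listed at 0 in both libraries. In LIM1215, 10 were higher and 5 lower, against 53.1% of all genes higher. Their median was 0.38 for HT29 and 0.16 for LIM1215, against 0.04 and 0.02 over all genes. Across the scalings tried, 13 or 14 were higher in HT29, with a median from 0.28 to 0.38, and 10 in LIM1215, with a median from 0.13 to 0.16. The one past 2-fold was SNHG25 in LIM1215. At 1.5-fold, 4 were higher in HT29 and 2 in LIM1215, and SNHG18 was lower in LIM1215. The fit over both lines called 1 of the 15, SNHG25 (mean log2 ratio 0.88 ± 0.11, adjusted p = 0.0247 in limma), and EPB41L4A-AS1 came next (0.69 ± 0.14, adjusted p = 0.0595 in limma).

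SNHG29, the most abundant of these, had an FPKM of 658 in HT29 NC, 932 in HT29 si2, 741 in LIM1215 NC and 857 in LIM1215 si2, with log2 ratios of 0.50 and 0.21. EPB41L4A-AS1, which hosts an H/ACA snoRNA, had an FPKM of 77.0, 106, 74.0 and 141 in the same order, with log2 ratios of 0.46 and 0.92. SNHG25 had 163, 273, 94.6 and 192, with log2 ratios of 0.74 and 1.01. These genes were higher in si2 in both lines, but the median annotated SNHG25 transcript, at 140 bases, is shorter than a sequenced fragment (about 202 bases), so its FPKM is uncertain.

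SNHG32 (0.38 in HT29 and 0.28 in LIM1215), SNHG17 (0.56 and 0.29), SNHG11 (0.61 and 0.18), SNHG3 (0.24 and 0.16), SNHG20 (0.29 and 0.52), SNHG30 (0.33 and 0.15) and SNHG4 (0.69 and 0.03) were also higher in both. SNHG9 had an FPKM of 53.7 in HT29 NC, 83.0 in HT29 si2, 77.6 in LIM1215 NC and 56.0 in LIM1215 si2, with log2 ratios of 0.62 and −0.46. SNHG19 had 55.8, 69.2, 84.3 and 62.0, with log2 ratios of 0.31 and −0.44. As deposited, these genes and SNHG5 were higher than control in HT29 and lower in LIM1215. SNHG10 (0.23 and −0.17) had the same pair of signs, and DANCR (0.02 and −0.12) had it as deposited, but its HT29 value turned negative under 4 scalings. SNHG18 had an FPKM of 12.6 in LIM1215 NC and 7.39 in LIM1215 si2 (log2 ratio −0.70).

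**Figure D4:**
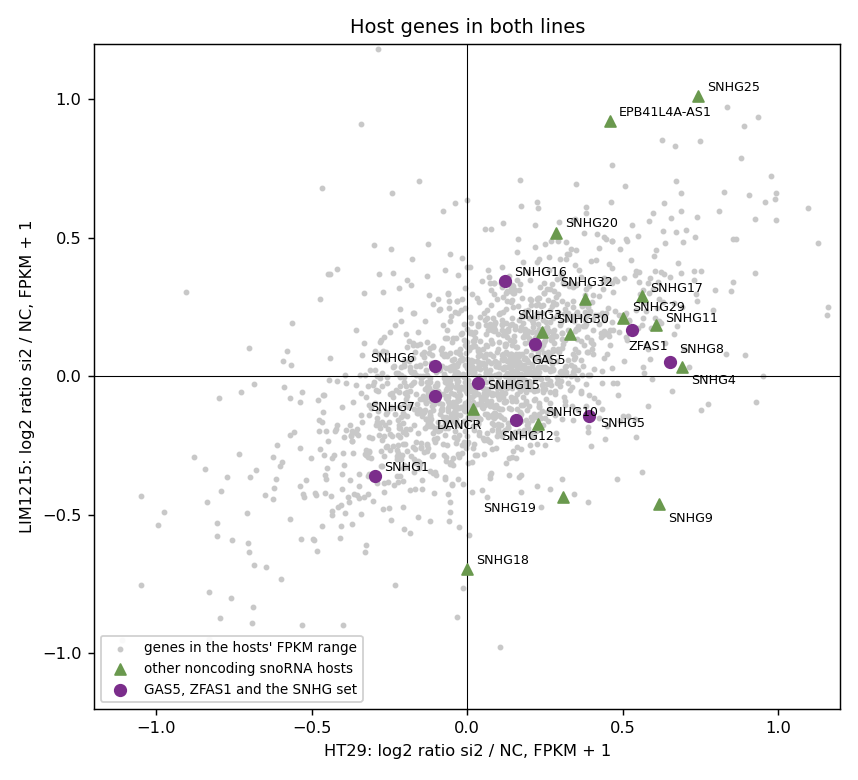
Log2 ratio of si2 over NC (FPKM + 1) in HT29 (horizontal) and LIM1215 (vertical) for the 10 hosts (circles), the 15 other noncoding hosts (triangles) and the 1693 genes of the same FPKM span (grey), of which 18 lie outside the axes. Most triangles lie right of 0, and SNHG9, SNHG19, SNHG5 and SNHG12 lie in the lower right of the plot.

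Hosts that also encode a protein release their snoRNAs in the same way but have a coding mRNA as the spliced product. Of 33 such genes outside the ribosome, 21 were higher in HT29 (18 under one scaling) and 19 in LIM1215 (12 under one scaling), with medians of 0.14 and 0.01 (as low as 0.03 and −0.02 under a scaling). All 176 annotated protein-coding hosts outside the ribosome, a set added after the values were seen, were evenly split, with 87 higher in HT29 and 93 in LIM1215 and medians of −0.01 and 0.01. Among the highest were RABGGTB, a subunit of Rab prenyltransferase (0.35 in HT29 and 0.57 in LIM1215), and HSPA8, the constitutive cytosolic HSP70 chaperone (0.26 and 0.63). The lowest were IPO7, a nuclear import receptor (−0.28 and −0.29), SNX5, a sorting nexin (−0.39 and 0.00, the latter negative under other scalings), and CWF19L1 (−0.22 and −0.16). Of 28 ribosomal protein genes that host snoRNAs, a set added after the values were seen, 24 were higher in HT29 (21 under one scaling) and 22 in LIM1215 (18), with medians of 0.21 and 0.05 (as low as 0.11 and 0.02).

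Genes whose mRNAs begin with a TOP tract, translation factors and others such as NPM1 and NAP1L1, were compared because several hosts share that start. The lists compared share some genes, so their medians are not independent. EEF2, for example, is also among the protein-coding hosts above. Of 16, 12 were higher in HT29 (10 under one scaling) and 10 in LIM1215, with medians of 0.20 and 0.08 (as low as 0.09 and 0.05). EEF2, the elongation factor that moves the ribosome along the mRNA, had an FPKM of 1705 in HT29 NC, 2643 in HT29 si2, 2166 in LIM1215 NC and 2445 in LIM1215 si2, with log2 ratios of 0.63 and 0.17. PABPC1, the poly(A)-binding protein, had log2 ratios of 0.40 and 0.18 and EIF4B, a helicase cofactor, of 0.38 and 0.20. EIF3E (−0.27 and −0.04), NAP1L1 (−0.19 and −0.11) and NPM1 (0.01, negative under other scalings, and −0.28) were the lowest.

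The decay pathway was examined at its factors and at coding mRNAs known as its targets. Of 19 decay factors, 11 were higher in each line, with medians of 0.03 and 0.02. Under a scaling, the count was as low as 8 in each line and the medians as low as −0.07 and −0.01, so the factors had no stable direction. PNRC2, an adaptor to decapping, was the highest, with an FPKM of 57.1 in HT29 NC, 114 in HT29 si2, 94.8 in LIM1215 NC and 148 in LIM1215 si2 (log2 ratios 0.99 and 0.64). DHX34 (0.16 and 0.31) and SMG9 (0.07 and 0.38) followed, the HT29 value of SMG9 turning negative under other scalings. EIF4A3 and MAGOH, core proteins of the exon junction complex, had log2 ratios of −0.13 and −0.18, and of 0.00 and −0.33. SMG8, which binds the kinase SMG1, had −0.36 and 0.03, and both MAGOH in HT29 and SMG8 in LIM1215 changed sign under other scalings.

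Of 14 coding decay targets, 7 were higher in HT29 and 8 in LIM1215, with medians of 0.01 (−0.09 under one scaling) and 0.04 (0.01). GABARAPL1, an autophagy protein (0.58 and 0.28), GADD45A, a stress-inducible growth inhibitor (0.33 and 0.04), and ATF3, a stress transcription factor (0.23 and 0.06), were the highest. DDIT3, the transcription factor CHOP of the unfolded protein response, was the one gene of this list past 2-fold, and it was lower. Its FPKM was 130 in HT29 NC, 46.9 in HT29 si2, 57.6 in LIM1215 NC and 20.6 in LIM1215 si2, with log2 ratios of −1.45 and −1.44. TBL2 (−0.06 and −0.33) and SMG5 (−0.12 and −0.18) were the next lowest. SMG5, UPF2 and SMG1 of this list are also among the decay factors. These coding decay targets thus had no common direction in either line.

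Proteins that bind and mature snoRNAs were compared last, and of these DKC1 and NOP56 are also among the protein-coding hosts above. Of 8 core proteins of snoRNA particles, 5 were higher in HT29 and 2 in LIM1215, with medians of 0.17 and −0.04 (as low as 0.06 and −0.07 under a scaling). NOP10 (0.39 and 0.23), SNU13 (0.21 and 0.10) and the pseudouridine synthase DKC1 (0.48 and −0.02) were the highest. NOP58, a scaffold of the C/D particle, was the lowest, with an FPKM of 87.1 in HT29 NC, 77.5 in HT29 si2, 94.6 in LIM1215 NC and 71.2 in LIM1215 si2 (−0.17 and −0.41). NOP56 (−0.06 and −0.08) and NHP2 (−0.01 and −0.02) were near control. Of 10 assembly factors, 8 were higher in HT29 (7 under one scaling) and 6 in LIM1215 (4), with medians of 0.15 and 0.00 (as low as 0.04 and −0.03). ZNHIT6 (0.44 and 0.54), SHQ1 (0.27 and 0.20) and PIH1D1 (0.14 and 0.27) were the highest, and RPAP3 (−0.55 and −0.22), NAF1 (−0.09 and −0.06) and NOLC1 (0.13 and −0.19) the lowest.

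Long noncoding RNAs without a snoRNA served as a comparison class. Of 19 compared, 10 were higher in HT29 (9 under one scaling) and 13 in LIM1215 (12), with medians of 0.07 and 0.34 (as low as −0.04 and 0.32). PVT1, a neighbour of MYC (0.69 and 0.66), PSMA3-AS1 (0.36 and 0.74) and EBLN3P (0.92 and 0.02, the latter negative under another scaling) were the highest. DLEU2 (−1.50 and −0.91), THAP9-AS1 (−0.41 and −0.14) and CYTOR (−0.22 and −0.10) were the lowest. The list was also extended after the values were seen, to all annotated lncRNAs with a mean FPKM of at least 20. Of 19 with a snoRNA matched by position, 16 were higher in HT29 and 11 in LIM1215 (medians 0.38 and 0.04, as low as 0.28 and 0.01 under a scaling). Of 60 with none matched, 41 and 37 were higher (0.15 and 0.13, as low as 0.05 and 0.10). These 60 include GAS5, a host within which the annotation gave no match. The first of these sets repeats hosts and other noncoding hosts described above. It is therefore not independent of them and gives no separate repeat of the result. Among all genes of the hosts' FPKM span, 59.2% were higher in HT29 and 50.7% in LIM1215.

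**Figure D5:**
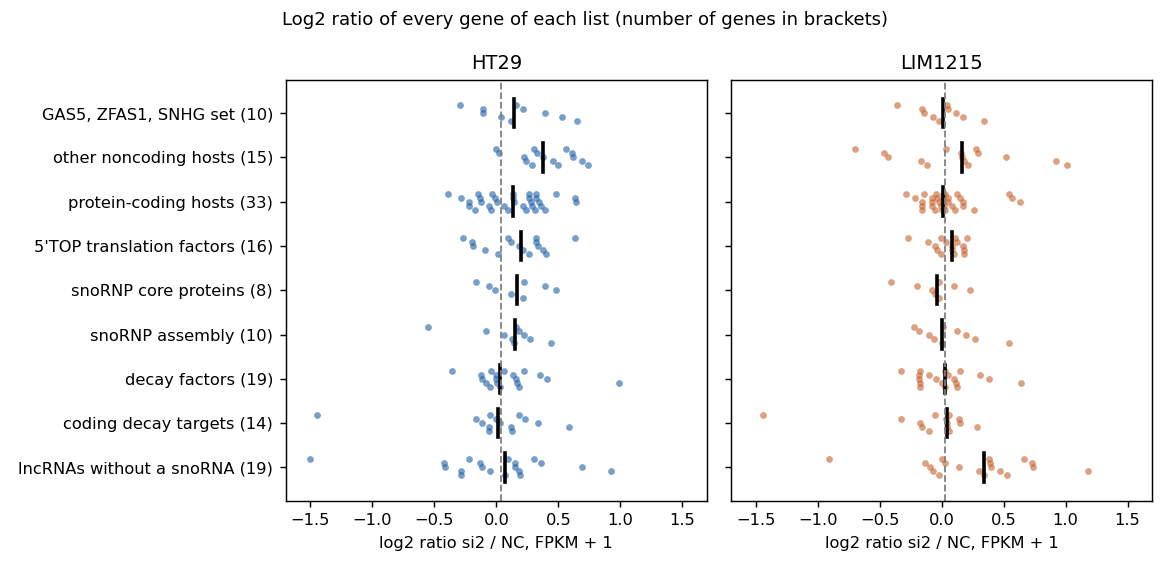
Log2 ratio of si2 over NC (FPKM + 1) for every gene of the 9 lists drawn, in HT29 (left) and LIM1215 (right); points are genes, black bars are list medians and the dashed line is the median of all genes compared. Of the lists drawn, the other noncoding hosts have the highest median in HT29 (0.38) and the lncRNAs without a snoRNA in LIM1215 (0.34). The list drawn as TOP translation factors also holds other genes, such as NPM1 and NAP1L1.

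Of 9886 protein-coding genes, those most like GAS5 and SNHG1 were sought by the smallest Euclidean distance over 3 quantities: the log2 ratio of si2 over NC in each line and that of LIM1215 NC over HT29 NC. For GAS5 these were HSPBP1 (distance 0.025), WASF2, NDUFS5, MID1IP1 and SH3GL1 (0.051). HSPBP1 is a cofactor of HSP70 chaperones and WASF2 a regulator of actin. For SNHG1 they were KIF23 (0.015), SERPINA5, ANXA5, DPH6 and KIF20A (0.050). KIF23 and KIF20A are kinesins of cell division, and KIF23 had log2 ratios of −0.31 and −0.36. With 3 quantities many genes come this close, and the likeness is a description.

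GAS5, SNHG1 and ZFAS1 share a head-to-head start with a protein-coding gene on the opposite strand, with start sites less than 1000 bases apart, a set listed after the values were seen. SLC3A2, the heavy chain of amino acid transporters, starts 51 bases from SNHG1. Its FPKM was 401 in HT29 NC, 341 in HT29 si2, 500.1 in LIM1215 NC and 296 in LIM1215 si2, with log2 ratios of −0.23 and −0.75, lower in both lines as SNHG1 was. ZNFX1, a helicase of antiviral defence, starts 113 bases from ZFAS1. Its FPKM was 18.8, 26.7, 14.5 and 20.6 in the same order, with log2 ratios of 0.49 and 0.48. ZBTB37, a zinc finger gene that starts 87 bases from GAS5, had an FPKM of 2.77, 3.80, 1.85 and 2.64, with log2 ratios of 0.35 and 0.35. In each pair the host and its neighbour had the same sign in both lines. Of all 14803 genes compared, 5324 were higher in both lines, as GAS5, ZFAS1 and their neighbours were. Another 4145 were lower in both, as SNHG1 and SLC3A2 were. How often neighbouring genes share their signs was not counted, so the match is not read as a trait of these pairs. The overlap of ZFAS1 with ZNFX1 and of GAS5 with ZBTB37 on opposite strands could share fragments, which was not tested.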

How the data were processed

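Polyadenylated RNA was measured in 4 libraries, 1 per cell line and siRNA, grouped by the sample titles. Total RNA came from miRNeasy Micro columns and libraries were made with a TruSeq stranded mRNA kit, per the labels' protocols. The authors deposited 1 FPKM value per gene and library. The submitters' processing notes name HISAT2 2.1.0, SAMtools 1.20, Cuffdiff, Cufflinks 2.2.1 and GRCh38; their roles, the annotation and the handling of strand and of shared reads were not given in the sources used here. As a relative unit FPKM lets a few abundant genes move all others, and very short genes receive high values from few fragments.

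Symbols and transcripts came from GENCODE release 44 (56550 of 60658 identifiers matched) and start windows from RefSeq. The measure was log2((si2 FPKM + 1)/(NC FPKM + 1)) for the 14803 genes with a mean FPKM of at least 1; it understates the change of low genes. Past 2-fold means a log2 ratio of 1 or more, or of −1 or less. With 1 library per group no p-value was computed within a line. An additive fit of line and siRNA over the 4 libraries (limma 3.58.1 in R 4.3.3, trended prior, Benjamini-Hochberg adjustment over all genes) was added after the data were seen, and its p-values measure the spread between the lines. Depth was estimated from the steps of low FPKM values: 78.6% to 79.4% of values lay within 0.03 of a whole fragment count. Fragments per gene used the shorter of the canonical and the median transcript, and intervals of a ratio the exact Clopper-Pearson method. The procedure was tested on simulated data. Python 3.11.15, numpy 2.4.6, pandas 2.3.3, scipy 1.17.1 and matplotlib 3.10.9 were used.

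The members and lists were chosen with earlier results of these data known. Named genes were every member, every other noncoding host measured, the 3 highest and 3 lowest of each other list by the mean of both lines' log2 ratios, the 5 genes most like GAS5 and SNHG1, and TMEM161A; 1 gene that this rule names is not reported here. Alternatives were other pseudocounts (0.1 and 5), filters (none, or a mean FPKM of at least 5), scalings, a 1.5-fold threshold and the mean in place of the median.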

Additional observations from a re-analysis of the deposited data

Results flagged for a closer look

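In the FPKM as deposited, the counting intervals of 4 hosts lay above 100% of control in HT29 and below it in LIM1215, so that the lines differed in direction. They were found among the 10 hosts and the 15 other noncoding hosts compared. Over all genes, 5000 of 14803 had opposite signs in the lines, and the share with intervals on opposite sides was not counted. The difference between the lines was not tested, since 1 library per group leaves no error for it. The log2 ratio of LIM1215 minus that of HT29 was −0.53 for SNHG5, −0.31 for SNHG12, −1.08 for SNHG9 and −0.74 for SNHG19. The HT29 intervals of SNHG12 and SNHG19 included 100% with a common sum of FPKM and with the common sum over long nuclear genes (97.1% to 111% and 96.5% to 138% with the latter), while SNHG5 and SNHG9 kept their sides under all 4 other scalings. SNHG9 and SNHG19 have short transcripts (median lengths of 405 and 479 bases), and the part of their length in the result was not tested. No group had enough libraries for a search for outlying samples.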

How the results depend on the processing

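The median log2 ratio of the 10 hosts in LIM1215, 0.01 as deposited, turned negative when log2 ratios were centred on their median over all genes (−0.0169), under upper quartile scaling (−0.00606), with a common sum over long nuclear genes (−0.0260) and as a mean over the hosts (−0.00429). The cause was not tested. In HT29 the median fell from 0.14 to 0.0349 with the common sum over long nuclear genes and kept its sign under the others. The count of hosts at least 2-fold higher in si2 was 0 in both lines under each scaling, pseudocount and filter, and at 1.5-fold it was 1 in HT29. The count at least 2-fold higher in LIM1215 NC than in HT29 NC, an alternative set added after the data were seen, went from 3 to 1 with a common sum, to 1 with upper quartile scaling and to 1 with the common sum over long nuclear genes. Of 160 values of single hosts under these alternatives, 150 stayed within their counting interval and 10 moved beyond it. The filters cannot change the ratio of a single host, so the values under them were fixed in advance. All 10 moves were in HT29, with a common sum of FPKM or with the common sum over long nuclear genes. There were 4 changes of sign, all for SNHG15 in HT29. A fit with the line as a block, added after the data were seen, is given above and called 0 of the 10 hosts. By the estimate used, SNHG16 in LIM1215 had the fewest fragments of the hosts, which rests in part on the shorter transcript length taken for it. No left-out library could be tried with 1 per group.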
